A study of Mus musculus with 30 samples.

Results

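The livers of 16 control mice were each set against a universal mouse reference RNA on 2-colour Agilent mouse expression arrays, with 1 array per animal. The series holds 30 arrays, and these 16 were chosen because their titles name them as controls. All animals were female C57BL/6 mice bought from Taconic at 5 to 6 weeks of age. The labels give the treatment of the controls only as none, so it is not known from them whether these animals received vehicle. The other 14 arrays held livers of mice of the same sex and strain instilled through the trachea with 0.162 mg of Printex 90, a nanoparticle form of carbon black, and they are used here only to see how far the same genes varied in other animals. The design text counts 6 mice for each treatment, which is below the number of arrays in either group.

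Liver RNA was labelled with the red dye Cy5 and the reference RNA with the green dye Cy3 throughout. The reference was bought as total RNA, and the labels do not say which tissues or cells it was made from. Each value below is a log2 ratio of liver over reference for a probe, so 1 unit is a 2-fold difference, a value above 0 means more signal from liver and a value below 0 more from the reference. Dyes were not swapped on any array, so a dye effect of a probe and a true difference between liver and reference cannot be told apart, and ratios within 2-fold are not read. The reference is 1 RNA pool, so differences between reference pools are not in the tests, while the spread of its channel between arrays is.

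The liver makes most of the proteins of blood plasma, clears ammonia through the urea cycle, releases glucose between meals, turns cholesterol into bile acids and modifies drugs and hormones for excretion. Most of its RNA comes from hepatocytes, and resident macrophages (Kupffer cells), sinusoidal endothelial cells, stellate cells and bile duct cells share the rest. Hepatocytes of an adult animal rarely divide, and many of their genes follow the time of day, the last meal, stress hormones and the sex of the animal.

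The 16 arrays differed in brightness. Their median signals reached 196 arbitrary units in Cy5 and ran from 43 to 113 in Cy3. The share of probes well above background ran from 42.8% to 79.2% in Cy5 and from 47.5% to 82.2% in Cy3. Log2 ratios of any pair of arrays correlated across probes with r between 0.954 and 0.989. Control RNAs added at known ratios were recovered with slopes between 0.784 and 0.904, as the file headers give them. The ratios of the extraction software were thus somewhat smaller than those added. These slopes were not computed for the ratios used here. No spot was saturated. Raw signals are given with their background, which had a median per array between 79.5 and 87.5 in Cy5 and between 16 and 29 in Cy3. Precision is limited by the number of animals.

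Of 13220 named genes tested, 1949 were higher in liver and 2029 were lower, which is 14.7% and 15.3% of them (limma, test against a 2-fold limit, Benjamini-Hochberg adjusted p below 0.05, slide as a random block). Over all 26773 probes tested, 11.7% were higher and 11.3% lower. The median ratio over all named genes was -0.10. The ratio lay beyond 1 log2 unit on each of the 16 arrays for 1597 of the higher genes and below -1 on each for 1594 of the lower ones. The distribution was uneven at its ends, as 433 genes exceeded 4 log2 units in favour of liver and 28 lay below -4. Higher genes made up 49.0% of those called, and 64.0% when the ratios were not normalised within arrays, where 2189 genes were higher and 1233 lower. No gene called here was called in the opposite direction under any alternative that was run.

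**Figure D1:**
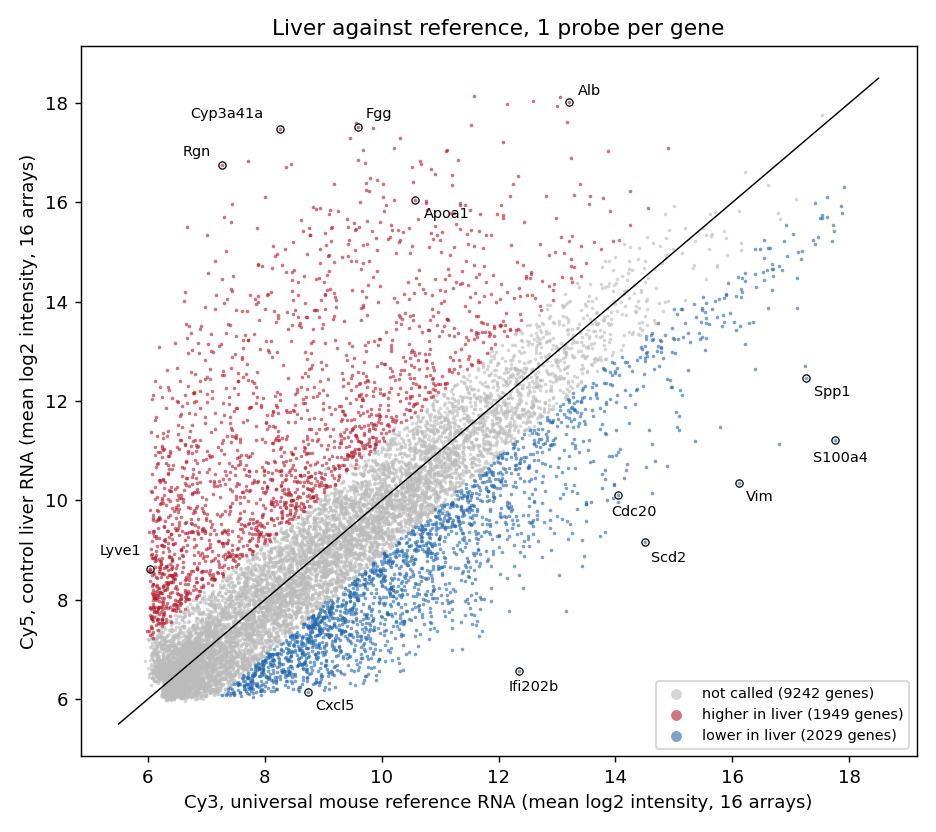
Mean log2 signal of the reference RNA (Cy3, horizontal axis) against that of liver RNA (Cy5, vertical axis) over the 16 control arrays, with 1 point per named gene; red points were called higher in liver, blue points lower and grey points were not called. The red points reach farther from the diagonal than the blue ones, with Rgn at 9.48 log2 units and S100a4 at -6.54.

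The markers of hepatocytes bore out the labelled tissue. Albumin (Alb), the main carrier protein of plasma, had raw Cy5 signals from 332460 to 443930 with a median of 398260, and raw Cy3 signals from 2406 to 11818 with a median of 7138. The dyes did not overlap on any array. Its ratio was 4.11 in the lowest animal, 4.75 in the median and 5.91 in the highest, with a mean of 4.82 ± 0.14 (SE, n = 16), or 28.1-fold (limma, adjusted p = 4.56e-16). Apoa1, the main protein of high-density lipoprotein, had ratios of 4.75, 5.40 and 6.64 in the lowest, median and highest animal. Its mean of 5.48 ± 0.13 (SE, n = 16) is a 44.6-fold difference (limma, adjusted p = 1.24e-17). Albumin RNA was also clearly present in the reference, and its ratio rose to 5.96 without normalisation within arrays. No probe was matched to Cps1, the first enzyme of the urea cycle. All 7 hepatocyte markers measured were higher, with a median of 5.84.

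Rgn stood farthest from the reference. It encodes regucalcin, a lactonase also known as senescence marker protein. Raw Cy5 signals of Rgn lay between 77958 and 214060 and raw Cy3 signals between 51 and 244, with medians of 133820 and 84.8. The ratio was 8.40 in the lowest animal, 9.56 in the median and 10.5 in the highest, a mean of 9.48 ± 0.15 (SE, n = 16). The next by size was Cyp3a41a, a cytochrome P450 of female mouse liver, with a median Cy5 signal of 228400 against 206 in Cy3. Its ratios ran from 8.06 through a median of 9.32 to 10.2. Cyp3a41a and Cyp3a16, which lay at 8.33, belong to a family of near-identical genes, so their probes may share transcripts.

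Other genes near the top served steroid, drug and plasma protein functions. Akr1c6, which reduces steroids, lay at 9.13 log2 units. Cfi and C4bp, which both restrain complement, lay at 8.53 and 8.18, and Aadac, an esterase that acts on drugs, at 8.41. Apoh, which binds phospholipids in plasma, lay at 8.33. The protease inhibitor Serpina3k had a mean of 8.35 by its brightest probe and of 4.36 by another probe, and belongs to a cluster of close copies.

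Some promoter features, which the ratio did not use, were more frequent among the strong liver genes. Promoters of some called genes are shown as examples, each with a motif that it holds. They were not chosen as the genes with the largest ratios. RefSeq promoters (build GRCm38.p6, 250 bases before to 50 after the start) were found for 10550 of the tested genes, 13495 promoters in all. Alb, Fga and Fgb hold a TTGCNNAA match, letters bound by C/EBP factors. Cyp3a41a holds CAAAGTCCA, letters bound by HNF4. Ccnb1, which starts mitosis and was lower in liver than in the reference, holds CCAAT, letters bound by NF-Y. Each sequence reads 5′ to 3′ along the gene, with the matches to the motif named for that gene, on either strand, in capitals; the Alb window also holds CCAAT, left in lower case.
Alb, chr5:90460620-90460919, plus strand: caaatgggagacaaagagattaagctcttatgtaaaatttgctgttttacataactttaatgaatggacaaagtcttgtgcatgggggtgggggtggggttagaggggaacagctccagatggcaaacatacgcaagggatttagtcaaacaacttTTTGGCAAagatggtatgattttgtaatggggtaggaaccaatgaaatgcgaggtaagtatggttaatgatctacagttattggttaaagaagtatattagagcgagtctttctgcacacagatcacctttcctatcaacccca
Fga, chr3:83025903-83026202, plus strand: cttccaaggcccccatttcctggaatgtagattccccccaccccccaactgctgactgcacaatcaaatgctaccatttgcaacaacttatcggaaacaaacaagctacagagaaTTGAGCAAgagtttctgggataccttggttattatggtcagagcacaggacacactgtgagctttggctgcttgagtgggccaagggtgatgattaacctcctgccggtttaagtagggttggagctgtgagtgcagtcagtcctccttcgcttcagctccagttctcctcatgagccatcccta
Fgb, chr3:83049814-83050113, minus strand: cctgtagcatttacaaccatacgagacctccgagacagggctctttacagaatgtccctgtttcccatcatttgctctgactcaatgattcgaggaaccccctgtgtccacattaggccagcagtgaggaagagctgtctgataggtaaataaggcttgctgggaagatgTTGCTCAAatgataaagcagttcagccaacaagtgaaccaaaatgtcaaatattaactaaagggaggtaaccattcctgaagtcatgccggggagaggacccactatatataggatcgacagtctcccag
Cyp3a41a, chr5:145720087-145720386, minus strand: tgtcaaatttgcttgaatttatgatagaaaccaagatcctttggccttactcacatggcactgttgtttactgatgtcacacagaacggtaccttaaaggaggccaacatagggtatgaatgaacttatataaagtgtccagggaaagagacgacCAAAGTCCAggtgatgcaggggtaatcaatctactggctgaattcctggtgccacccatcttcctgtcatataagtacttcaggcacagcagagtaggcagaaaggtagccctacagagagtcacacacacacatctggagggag
Ccnb1, chr13:100786437-100786736, minus strand: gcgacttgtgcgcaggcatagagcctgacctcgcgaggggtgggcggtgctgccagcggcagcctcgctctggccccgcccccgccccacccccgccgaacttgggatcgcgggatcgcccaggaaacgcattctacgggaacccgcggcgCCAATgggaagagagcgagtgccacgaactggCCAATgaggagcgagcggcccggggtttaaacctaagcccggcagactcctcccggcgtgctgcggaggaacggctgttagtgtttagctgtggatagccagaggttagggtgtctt

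The fibrinogen genes Fga and Fgb, which encode chains of the clot protein, had ratios of 6.23 and 5.83, and Ccnb1 one of -3.78. The Alb, Fga, Fgb and Cyp3a41a windows held 3, 3, 5 and 2 CpG pairs, and the Ccnb1 window 29. Over all tested genes the median was 19 CpG pairs per promoter. It was 12 for genes higher in liver, 20 for genes lower in liver, and 4 for the 324 genes above 4 log2 units with a promoter here. At most 5 pairs stood in 61.8% of the promoters of those genes, in 31.9% of the promoters of all higher genes and in 17.8% of all promoters.

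Letters bound by liver transcription factors were also more frequent there. TTGCNNAA was present on either strand in 21.7% of promoters of genes above 4 log2 units, in 12.7% of those of all higher genes, in 8.09% of those of lower genes and in 9.25% of all. CAAAGTCCA was rare, at 3.24%, 1.30%, 0.150% and 0.519%. The TATA box, searched as TATAAA, stood in 20.4%, 11.2%, 9.04% and 8.63% of them. The letters CACGTG, an E-box, went the other way, at 5.49% above 4 log2 units, 7.93% in all higher genes and 9.34% in all promoters. CCAAT stood in 42.9% of the promoters of genes above 4, in 40.6% of higher, 38% of lower and 37.6% of all promoters. TTTGAA, the core of the cell cycle element CHR, stood in 18.2%, 14.4%, 14.1% and 12.5% of the same groups. None of these motifs contains another. Promoters with few CpG pairs are rich in A and T, which these shares were not corrected for, and a match is a run of letters and not a bound site.

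All 18 carrier and transport proteins measured were higher, with a median of 5.17 against -0.10 for all genes. Ambp, the precursor of a protease inhibitor and of a small carrier, reached 8.05, Itih3, an inhibitor chain that binds hyaluronan, 6.93, and Gc, the carrier of vitamin D, 6.69. Hpx, which binds free heme, lay at 6.66, and Ttr, which carries thyroid hormone, at 5.39. Thyroxine-binding Serpina7 was the lowest of those named, at 2.56.

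Lipoprotein genes followed the same order of size. Of 17 measured, 16 were higher, with a median of 5.46. Apob, the backbone of very-low-density lipoprotein, lay at 6.83, and Apoc1 and Apof, which act on lipid transfer, at 6.56 and 6.67. The phospholipid transfer protein Pltp, at 0.70, did not pass.

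Complement and clotting genes were nearly complete in liver. All 22 complement genes measured were higher, with a median of 5.09, among them Hc, which encodes component C5, at 6.73, Mbl2, a lectin that starts the pathway, at 6.53, and C9 at 4.10. Among 23 clotting genes 22 were higher, with a median of 5.38. Fgg, a chain of fibrinogen, lay at 7.93, Serpinc1 (antithrombin) at 7.26, F2 (prothrombin) at 7.08 and the B chain of factor XIII, F13b, at 6.31. The exception was F3, tissue factor, which starts clotting outside the vessel and was lower in liver at -1.38. F3 was named after its values were seen.

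Acute phase genes split. Of 18 measured 14 were higher, with a median of 3.81. Orm1 and Orm2, which encode alpha-1-acid glycoproteins, lay at 6.27 and 6.13, and Hp, which binds hemoglobin, at 5.15. The 4 that did not pass were Saa3, Lcn2, Mt1 and Mt2, at 0.02, 0.70, 0.02 and -0.20, and 3 of these stand among the most variable genes described below. Serum amyloid Saa4 reached 5.45. The Orm and Saa genes have near-identical copies, so their probes may share signal.

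**Figure D2:**
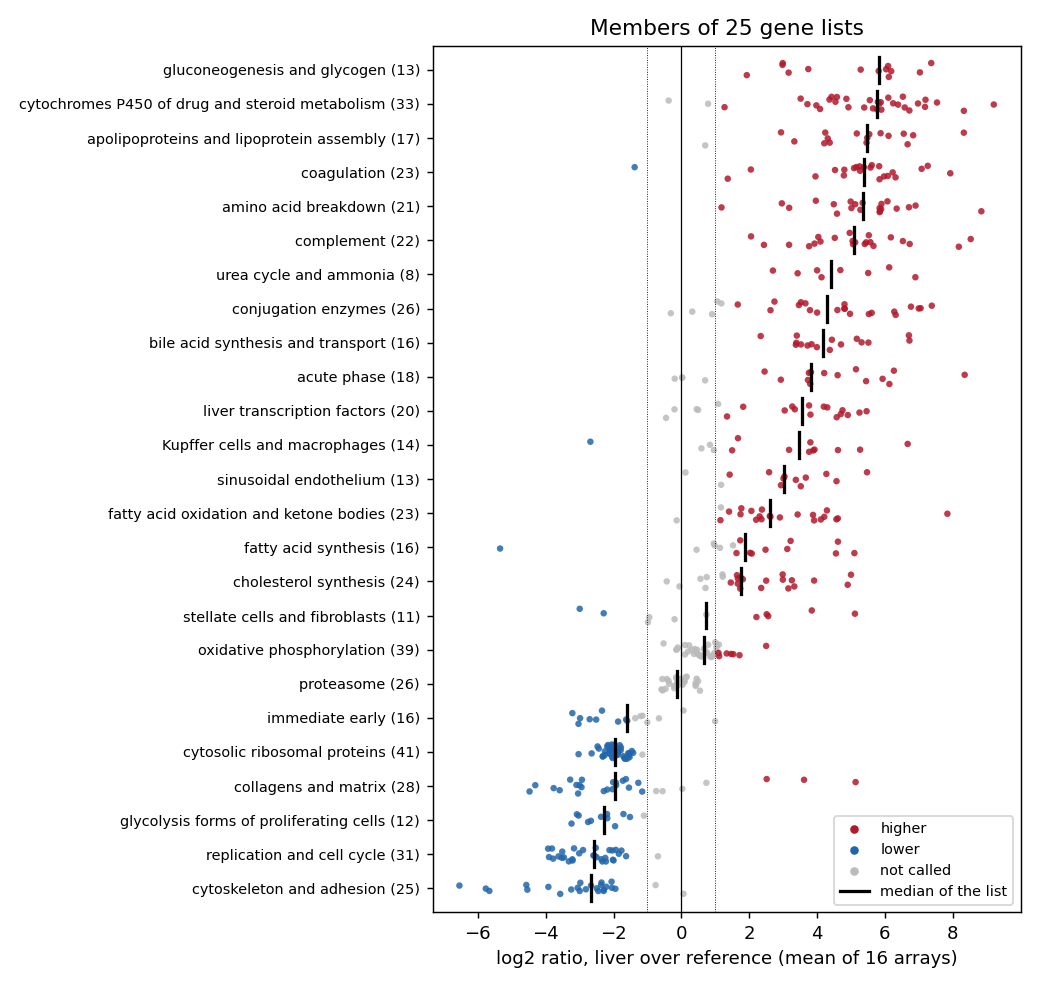
Log2 ratio of liver over reference (axis, log2 units) for the measured members of 25 gene lists, with 1 point per gene, a black bar at each list's median and dotted lines at the 2-fold limits. Lists of liver functions have medians from 5.84 downwards, while the replication and cell cycle list lies at -2.56 and the cytoskeleton list at -2.66.

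Nitrogen and amino acid metabolism was higher throughout. All 8 urea cycle and ammonia genes measured were higher, with a median of 4.41. Otc, which makes citrulline, lay at 6.90, Arg1, which releases urea, at 6.13, and Glul, which fixes ammonia into glutamine, at 4.69. All 21 genes of amino acid breakdown were higher, with a median of 5.34. Aass, which degrades lysine, lay at 6.90, Mat1a, which makes S-adenosylmethionine, at 6.71, Agxt, which detoxifies glyoxylate, at 6.35, and Tat, which starts tyrosine breakdown, at 6.08.

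Enzymes of sugar metabolism differed by isoform. All 13 genes of gluconeogenesis and glycogen measured were higher, with a median of 5.82, led by Fbp1, a gluconeogenic phosphatase, at 7.37 and Igfbp1, a secreted binder of insulin-like growth factors, at 7.03. Aldoa, the aldolase of muscle and proliferating cells, lay the other way, with ratios of -4.13, -3.13 and -2.86 in the lowest, median and highest animal and median raw signals of 21282 in Cy5 and 88275 in Cy3. All 16 animals showed the same direction for it.

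The isoforms of glycolysis used by proliferating cells went with Aldoa. Of 12 measured 11 were lower and none was higher, with a median of -2.28, and Ldha, at -1.10, did not pass. Slc2a1, the glucose transporter of most cells, lay at -3.08, while Slc2a2, that of hepatocytes, lay at 6.03 and, with the scanner's processed signals, at 10.08. The hexokinases Hk1 and Hk2 lay at -1.52 and -2.37. Of the enzymes with a single main form, Pgk1 lay at -2.19 and moved to -1.18 without normalisation within arrays, where it no longer passed.

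Bile acid genes were higher without exception among the 16 measured, with a median of 4.19. Abcb11, the pump that exports bile salts, lay at 6.72, Baat, which joins bile acids to taurine, at 6.71, Slc10a1, which takes them up from blood, at 5.51, and Cyp7a1, the rate-limiting enzyme of their synthesis, at 4.44. Akr1d1, a reductase of the same pathway, had a mean of 2.34, but its reference signal was not well above background on any array.

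Cytochromes P450 of drug and steroid metabolism had 31 of 33 measured members higher, with a median of 5.77. Cyp4a14, which acts on fatty acids, lay at 7.54, Cyp2j5 at 7.2, Cyp2a4, a steroid hydroxylase, at 7.18 and Cyp2e1, which oxidises ethanol, at 5.90. Cyp2a4 lay at 4.78 by a probe with both dyes above background on all arrays. Cyp2c55, at -0.38, and Por, the reductase that supplies all of these enzymes with electrons, at 0.79, did not pass. Of 26 conjugation enzymes 21 were higher, with a median of 4.30. Ugt2a3 and Ugt2b5, which add glucuronic acid, lay at 7.38 and 6.32, and the sulfotransferases Sult2a8 and Sult1a1 at 7.05 and 7.0. Ephx2, a hydrolase of lipid epoxides, lay at 6.77, while Ephx1 and Gstm2, at 1.06 and 0.90, did not pass. Many genes of these families are near copies of each other, so single values are uncertain.

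Lipid oxidation and synthesis lay nearer to the reference. In fatty acid oxidation and ketone body formation 21 of 23 were higher, with a median of 2.61. The fatty acid binder Fabp1 lay at 7.84, Ehhadh, of the peroxisomal pathway, at 4.61, and Acot1 and Fgf21 did not pass, at 1.17 and -0.14. In cholesterol synthesis 17 of 24 were higher, with a median of 1.75. Tm7sf2 and Sc5d, late enzymes of the pathway, lay at 5.00 and 4.90.

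Fatty acid synthesis held the clearest switch between related genes. Of 16 measured 10 were higher and 1 was lower, with a median of 1.88. Scd1, the stearoyl-CoA desaturase of liver, had ratios of 3.84, 4.69 and 5.40 in the lowest, median and highest animal, and a mean of 4.62 ± 0.12 (SE, n = 16) (limma, adjusted p = 2.49e-16). Scd2, its relative of other tissues, had ratios of -5.82, -5.29 and -4.81 and a mean of -5.34 ± 0.07 (SE, n = 16), 40.6-fold lower (limma, adjusted p = 1.75e-21). Median raw signals of Scd1 were 44157 in Cy5 and 1149 in Cy3, and those of Scd2 743 and 20130. Thrsp, which follows lipid synthesis, lay at 5.10, and Dgat2, which completes triglycerides, at 4.56.

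Transcription factors of liver were higher in 15 of 20 cases, with a median of 3.55. Foxa2, which opens liver chromatin, lay at 5.25, Hnf4a, the central hepatocyte factor, at 4.91, and the bile acid receptor Nr1h4 at 4.70. The value of Hnf4a was 2.38 as the median over its probes. Foxa1, Prox1, Cebpb and Xbp1 did not pass, at 0.49, 1.08, -0.20 and 0.45.

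Genes of both ends of the liver lobule were present in these whole-liver samples. Hepatocytes near the portal vein carry the urea cycle, and those near the central vein carry glutamine synthesis and much of drug metabolism. All 16 periportal genes measured were higher, with a median of 5.30, among them Etnppl, which degrades phosphoethanolamine, at 6.08 and Cyp2f2 at 5.79. Of 17 pericentral genes 16 were higher, with a median of 4.37, including Cyp2a5 at 6.39 and Gulo, which makes ascorbate, at 5.84. The amino acid transporter Slc1a4 did not pass, at -0.17.

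Sex-linked genes were read as a check of the labelled sex. Xist, the RNA that silences an X chromosome, had ratios of 0.63, 1.40 and 1.88 in the lowest, median and highest animal and was higher in liver at 1.37 ± 0.09 (SE, n = 16) (limma, adjusted p = 0.00104), a call that it lost under median centring, at 1.26. The Y-linked Ddx3y and Eif2s3y were lower, at -1.45 and -1.53, with Cy5 well above background on 1 and 3 of the 16 arrays. Ddx3y did not pass without normalisation within arrays, at -1.27. Over the alternatives that were run its ratio reached -4.42, and that of Eif2s3y lay between -4.61 and -1.33. Kdm5d, also Y-linked, lay at -0.68 and did not pass. Known female-biased liver genes were higher in all 19 cases measured, with a median of 4.51, among them the sulfotransferase Sult2a8 at 7.05. Known male-biased genes were higher in 12 of 14, with a median of 4.77, among them the pheromone carriers Mup1 and Mup3 at 7.65 and 5.67, whose family members are nearly identical. These lists are set against a reference of unstated origin and not against male livers, so they say nothing about a sex difference here.

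The other cells of the liver left their own marks. Of 14 Kupffer cell and macrophage markers 10 were higher and 1 was lower, with a median of 3.47. Cd5l, a secreted protein of tissue macrophages, lay at 6.67, Clec4f, which marks Kupffer cells, at 5.27, and Marco, a scavenger receptor, at 4.62. Adgre1, Csf1r and Mpeg1, which macrophages of all tissues share, did not pass, at 0.96, 0.84 and 0.59. The complement genes C1qb and C1qc of the same list were higher, C1qb at 3.17 and C1qc with ratios from 3.34 to 4.64. The list thus gives no clear split between shared and Kupffer cell markers. The lower one was Cd14, the co-receptor for endotoxin, at -2.68, named after its values were seen. In bulk tissue, a lower share of a cell type and less RNA per cell cannot be told apart.

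Sinusoidal endothelium was also visible. Of 13 markers 11 were higher, with a median of 3.04. The lectin Clec4g lay at 5.47, the orphan receptor Gpr182 at 4.57, the growth factor receptor Kdr at 4.27 and the scavenger receptor Stab2 at 3.37. Pecam1 and Tek, which endothelium of all organs shares, did not pass, at 0.12 and 1.17. Cdh5, an endothelial marker of the same list, was higher at 3.52, so the list gives no clear split between shared and sinusoidal markers. Stellate cell and fibroblast markers split, with 5 of 11 higher and 2 lower and a median of 0.74. Those higher included the secreted lectin Colec11 at 5.12, Reln at 3.84 and Lrat, which stores retinol, for which a bound is given below. Those lower were Acta2, the actin of smooth muscle and activated stellate cells, at -3.0, and Thy1, of fibroblasts and T cells, at -2.29.

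Bile duct markers split. Of 8 measured 1 was higher and 3 were lower, with a median of -1.03. Spp1 (osteopontin) had ratios of -5.35, -4.84 and -4.36, Krt19 lay at -2.83 and Epcam at -2.49. The Spp1 signal in liver itself was strong, with a median raw Cy5 signal of 9308 against 118560 in Cy3, so a low ratio does not mean a low signal. Sox9 and Krt7 did not pass, at -0.73 and -0.99.

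Markers of blood cells and of other tissues were mixed. These lists are small, and of all named genes 14.7% were higher and 15.3% lower. Of 4 red blood cell genes measured 3 were higher, with a median of 4.11, Hbb-bt at 6.12, Hba-a1 at 4.53 and Alas2 at 3.69. Of 4 neutrophil genes S100a9 was higher, at 3.45, and Mmp9 lower, at -1.74, while S100a8, its partner in the calprotectin dimer, lay at -0.44, and 8 others fell below the filter. Of 11 T and NK cell markers 1 was higher, Nkg7 at 1.26, and 3 were lower. Nkg7 did not pass without the 2 arrays of the older extraction version, at 1.21, or as the median over its probes, at 0.87. Among 9 B and plasma cell markers H2-Ab1 and H2-Aa, which present antigen in many cell types, were higher, at 3.18 and 1.72, and 4 were lower, Jchain, which joins antibody units, at -3.65 among them. None of 3 pancreas genes passed, Ins2 lying at -0.10, and 8 others fell below the filter. Of 5 adipose genes Fabp4, also found in capillaries and macrophages, was higher at 3.32, and so was Pparg at 1.19, which did not pass under median centring, at 1.11. Muscle genes were higher in none of 11 cases and lower in 4.

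S100a4 stood farthest on the side of the reference. It encodes a calcium-binding protein of fibroblasts and motile cells. Raw Cy3 signals lay between 73131 and 230950 and raw Cy5 signals between 1209 and 8966, so the dyes did not overlap. The ratio was -7.97 in the lowest animal, -6.47 in the median and -5.47 in the highest, and the mean of -6.54 ± 0.17 (SE, n = 16) is a 93.2-fold difference (limma, adjusted p = 3.25e-17). Vim, the intermediate filament of mesenchymal cells, had ratios of -6.29, -5.77 and -5.21, with median raw signals of 1680 in Cy5 and 56659 in Cy3. Its mean was -5.77 ± 0.06 (SE, n = 16) (limma, adjusted p = 2.16e-22), 54.4-fold lower. Ifi202b, an interferon-inducible DNA sensor, lay at -5.80, with Cy5 well above background on 8 of 16 arrays. Others at this end, beside Scd2 and Spp1, were S100a6, a relative of S100a4, at -5.66, the interleukin 33 receptor Il1rl1 at -5.38, Cav1, which shapes membrane pits, at -4.75, the phospholipid binder Anxa1 at -4.57 and the galectin Lgals1 at -4.54. As medians over their probes Il1rl1 lay at -4.0 and Cav1 at -3.19.

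Genes of dividing cells were lower in liver than in the reference almost without exception. Of 31 replication and cell cycle genes 30 were lower and none was higher, with a median of -2.56, and the same count of 30 was reached under each other normalisation and offset that was run. Cdc20, which drives cells out of mitosis, had ratios of -4.50, -3.94 and -3.05, with median raw signals of 1281 in Cy5 and 13791 in Cy3. Birc5, which guards chromosome separation, lay at -3.90, Ccna2 at -3.81, Mcm4, of the replication helicase, at -3.52 and Top2a, which untangles DNA, at -3.21. Tk1, a thymidine kinase, lay at -0.69 and did not pass. The growth regulator Myc lay at -3.21.

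The cytoskeleton and the matrix followed. Of 25 cytoskeleton and adhesion genes 23 were lower, with a median of -2.66, again the same count under each of those settings, and Actb and Cnn3 did not pass, at -0.76 and 0.06. Tuba1a, a tubulin, lay at -3.92. Of 28 collagen and matrix genes 21 were lower and 3 higher, with a median of -1.97. Col1a1, the main collagen of connective tissue, had ratios of -5.22, -4.46 and -3.88, and Lox, which cross-links collagen, lay at -3.76. As the median over its probes Col1a1 lay at -2.71. The 3 higher were Vtn (vitronectin), a plasma protein, at 5.14, Col18a1, the precursor of endostatin, at 3.62, and the proteoglycan Lum at 2.51.

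Growth genes of fetal tissue were often lower than in the reference as well. Of 15 fetal and oncofetal genes 8 were lower and 1 was higher, with a median of -1.59. Hmga2 and Hmga1, chromatin proteins of growing cells, lay at -3.89 and -3.74, Dlk1 at -2.84 and Igf2 at -2.34. Afp, the fetal counterpart of albumin, had ratios of -1.5, -1.14 and -0.42 and did not pass. Cdkn1c, a brake on the cell cycle, was the higher one, at 1.69. None of 4 pluripotency and germ cell genes passed, and 8 others fell below the filter.

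Immediate early genes, which respond to stimuli within minutes, were lower in 9 of 16 cases and higher in none, with a median of -1.61, and between 6 and 12 were lower under the other normalisations and offset. Ier3 lay at -3.03, Klf4 at -2.70, Nr4a1 at -2.51 and Fos at -2.34. Interferon response genes went the other way in part, with 10 of 29 higher and none lower and a median of 0.71. Iigp1, a GTPase that attacks intracellular parasites, lay at 6.56, and the chemokine Cxcl9 at 3.44.

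Housekeeping families lay close enough to the limit that the processing decided their calls. Of 41 cytosolic ribosomal protein genes 40 were lower, with a median of -1.96. That median was -1.16 with 18 lower under median centring in place of loess, -0.91 with 4 lower without normalisation within arrays, and -2.10 with 41 lower in the deposited value table. All these medians were below 0. Rpl14 lay at -3.03, and its ratio stayed between -3.32 and -2.69 under all alternatives. Ribosomal protein genes have many processed copies, so probes may also read those.

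Oxidative phosphorylation genes were higher in 7 of 39 cases, near the 14.7% of all named genes, with a median of 0.68. Between 5 and 23 were higher under the other normalisations and offset, with medians from 0.52 to 1.40. Sdha and Sdhb, subunits of succinate dehydrogenase, lay at 2.50 and 1.71. None of 26 proteasome genes passed in either direction, and their median of -0.11 changed sign with the processing, between -0.36 and 0.57. Of 16 heat shock genes 4 were lower, against 15.3% of all named genes, with a median of -0.67. Between 2 and 6 were lower under the other settings. Serpinh1, a chaperone for collagen, was the lowest of them at -3.50.

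The genes often used to normalise measurements were not alike between liver and reference. Of 14 measured 6 were lower and 1, Sdha, was higher, with a median of -0.93, and between 1 and 7 were lower under the other settings. Gapdh, a glycolytic enzyme, had ratios of -2.36, -1.74 and -1.32 and a mean of -1.76 ± 0.06 (SE, n = 16), but its raw medians of 26720 in Cy5 and 40184 in Cy3 stood closer together. Its mean was -0.97 under median centring and -0.72 without normalisation within arrays, where it no longer passed. Actb, Hprt and Tbp did not pass, at -0.76, -0.54 and -0.19.

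Some genes were measured on 1 side only. The reference signal was not well above background on any of the 16 arrays for 61 tested genes. Of these 23 were called higher, against 14.7% of all named genes. Since the filter admitted them only through their liver signal, it set the direction of any call among these genes. For them the fold is a lower bound, the mean liver signal over the higher of the gene's own reference signal and the lowest signal that was well above background on that array, both on the log2 scale after the channels were aligned. Acot4, a peroxisomal thioesterase, was at least 17-fold higher, with raw Cy5 signals from 786 to 1819 and Cy3 signals from 27.0 to 51.5. Lower bounds were 9.76-fold for Mup6, a urinary protein with near-identical relatives, and 7.71-fold for Itga8, an integrin of mesenchymal cells. Those of Lyve1, the hyaluronan receptor of sinusoidal endothelium, and of Lrat were 5.88-fold and 5.75-fold. Such a bound rests on a dim reference signal and is open to dye bias, since no array had the dyes swapped.

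On the other side the liver signal was not well above background on any array for 145 tested genes. Of these 11 were called lower, against 15.3% of all named genes. They passed the filter only through their reference signal, which set the direction of any call among them. Cxcl5, a chemokine that draws neutrophils, was at least 5.86-fold lower in liver, with raw Cy5 signals from 84.5 to 111 and Cy3 signals from 111 to 664. Sema3e and Sema3a, guidance proteins of vessels and axons, were at least 3.94-fold and 3.73-fold lower, Ptgs2, the inducible cyclooxygenase, at least 3.47-fold and the homeobox gene Hoxa10 at least 3.23-fold.

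How far a gene varied between the 16 animals was measured by the standard deviation (SD) of its ratio, over 11961 genes with liver signal well above background on at least 8 arrays. The median SD was 0.18 log2 units, a factor of 1.13. The same gene's SD was 0.26 at the median for the Cy5 signal alone and 0.22 for the Cy3 signal, which holds the same RNA on every array. Among 113 bright probes printed 10 times on each array, the spots of an array had a median SD of 0.06, against 0.21 between animals for the same probes. With 16 animals the 95% interval of a single SD reaches from 0.739 to 1.55 times its value.

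An SD of 0.5 or more was found for 469 genes, 3.92% of those measured, and for 18 it was 1 or more. The count was 221 with slide effects removed, 711 for the Cy5 signal alone, 239 among 8832 genes with both dyes above background on all arrays, 925 with a smaller background offset, and 2008 with the scanner's processed signals. Of the 469 genes 318, or 67.8%, were higher in liver, against 16.3% of all genes measured. The reference channel moved with this group. For 154 of the 469 the Cy3 signal varied more than the Cy5 signal, and 140 of those 154 were higher in liver, with a median ratio of 5.89. For 199 the SD of Cy5 was at least 2 times that of Cy3, and 77 of these were higher in liver.

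The strongest liver genes varied together by array. Of the 433 genes above 4 log2 units 153 had an SD of at least 0.5, and the median of their SD was 0.46 for the ratio, 0.31 for Cy5 and 0.41 for Cy3. Their median deviation from each gene's mean ran from -0.75 in animal 574 to 0.59 in animal 596. The Cy5 part of this ran only from -0.21 to 0.20, and the Cy3 part from -0.46 in animal 600 to 0.55 in animal 574. The 2029 genes lower in liver shifted by -0.10 to 0.12 and the genes not called by -0.03 to 0.04. Alb itself had an SD of 0.56 for its ratio, 0.19 for Cy5 and 0.51 for Cy3, and Apoh one of 0.73, 0.15 and 0.78. For both genes the reference channel varied more than the liver channel. Of the 433 genes 39 had an SD of at least 0.5 in Cy5.

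**Figure D3:**
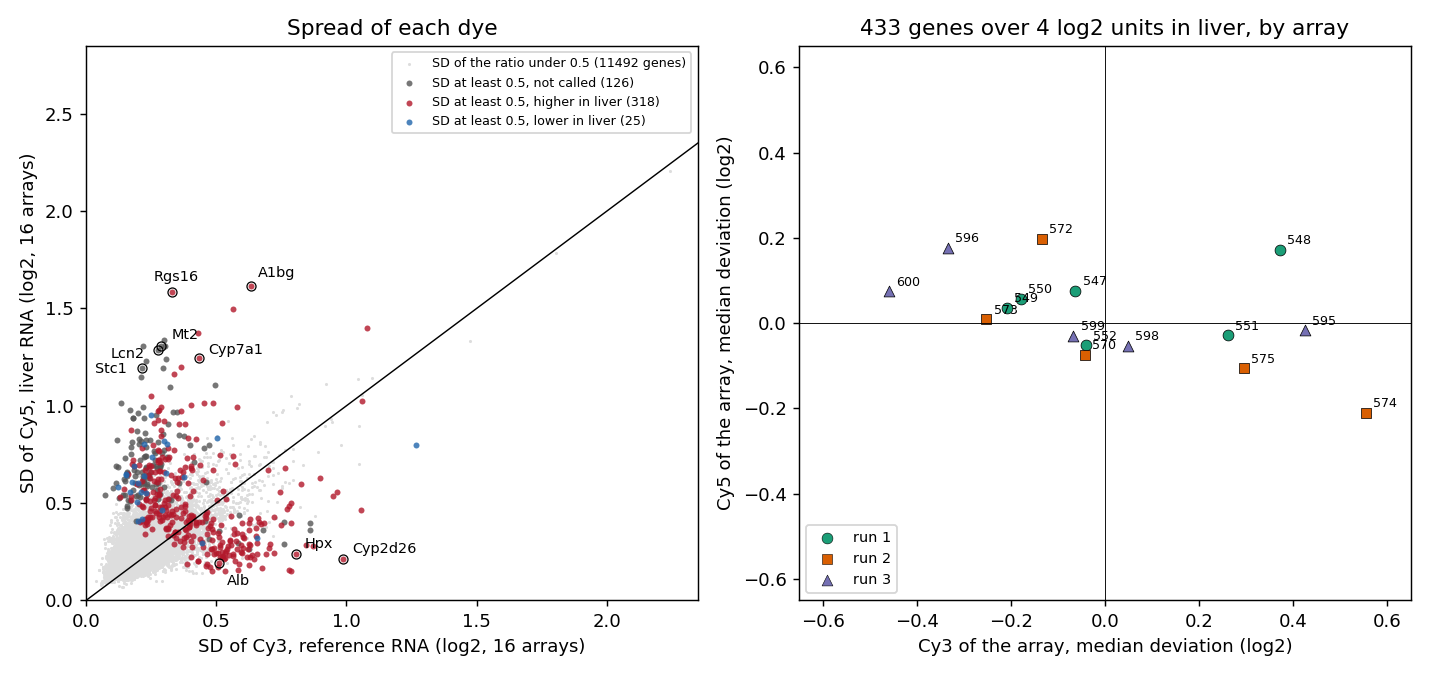
Left, SD over 16 animals of the log2 reference signal (Cy3, horizontal axis) against that of the log2 liver signal (Cy5, vertical axis), with 1 point per gene coloured by its call and by whether the SD of its ratio reached 0.5. Right, for each array, labelled by animal number, the median deviation of the 433 genes above 4 log2 units in Cy3 (horizontal axis, -0.46 to 0.55) and in Cy5 (vertical axis, -0.21 to 0.20).

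The most variable genes themselves varied in the liver channel. In 15 of 15 the SD of Cy5 was larger than that of Cy3. They are given as a description, since they were chosen by this spread. Mt2, a metallothionein that binds zinc and responds to stress hormones, led with an SD of 1.55 (95% interval 1.14 to 2.40), from -2.73 through a median of -0.44 to 2.04. Its raw Cy5 signal ran from 15034 to 246020 and its raw Cy3 signal from 13085 to 53219. Livers thus stood on both sides of the reference for this gene.

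Sult3a1, a sulfotransferase of female liver, had an SD of 1.35 and ratios from 2.03 to 6.94. Cyp7a1 ran from 2.12 through 4.33 to 6.10, with raw Cy5 signals from 454 to 9651. The retinoic acid hydroxylase Cyp26b1 ran from -1.21 to 3.12. Angptl4, which inhibits lipoprotein lipase and rises with fasting, ran from -0.73 to 2.58. A1bg, a plasma glycoprotein of female mouse liver, ran from 2.65 to 6.45, with fitted run means of 3.80, 4.04 and 5.82 for the runs of animal numbers described below, a difference that did not pass (limma F test, adjusted p = 0.104).

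Dbp, a factor driven by the circadian clock, had a median of -1.32 and a lowest value of -2.48, and its 3 highest values were 1.0, 0.68 and 0.52 in animals 549, 574 and 551. Rgs16, which damps G protein signals, ran from 0.09 to 5.09, with raw Cy5 signals from 220 to 13750. Noct, a clock-driven phosphatase, ran from -1.97 to 1.75, and the immediate early gene Egr1 from -3.07 up to the level of the reference. Bcl6, a repressor that acts in the fasting and sex programmes of liver, ran from -1.28 to 2.44. Arntl, the activator of the clock, had its lowest values in animals 574 and 549, at -0.84 and -0.49, which are 2 of the 3 animals with the highest Dbp.

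Saa3 and Lcn2 were high in the same 2 animals. Saa3, an amyloid protein made in inflammation, stood at 3.39 in animal 551 and 2.29 in animal 549, while all others lay between -0.85 and 0.39. Lcn2, which binds bacterial siderophores, stood at 3.81 and 2.24 in the same animals, and its median over all was 0.42. The highest raw Cy5 signal of Saa3 was 35985, against a median of 1348. Animal 549 also had the highest Marco, at 6.46 against 3.81 to 5.49 in the others.

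**Figure D4:**
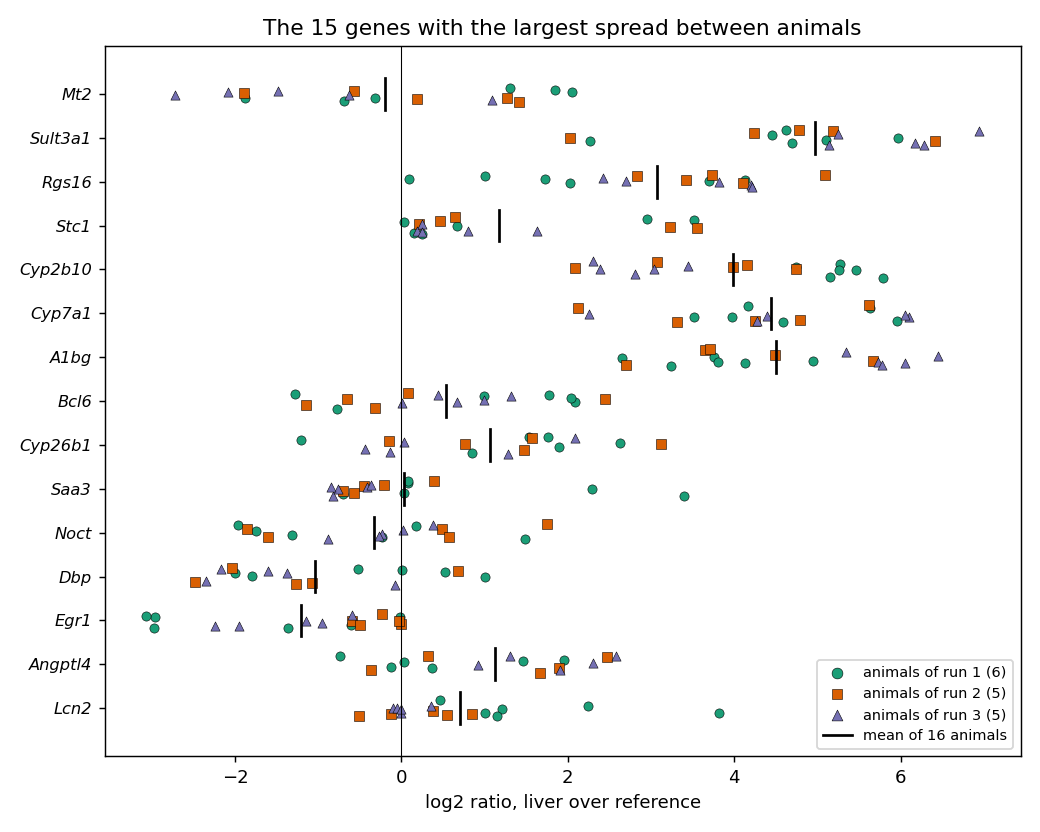
Log2 ratio of liver over reference (axis, log2 units) of the 15 genes with the highest SD, with 1 point for each of the 16 control animals coloured by run of animal numbers and a bar at the mean. Mt2 spreads from -2.73 to 2.04, and Saa3 and Lcn2 show 2 animals above all others.

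Lists of genes differed in how often their members varied. Of 18 clock genes 11 had an SD of at least 0.5, or 61.1%, against 3.92% of all genes, and of 20 genes of fasting, feeding and glucocorticoid response 13, or 65%. Pdk4, which spares glucose in fasting, was lowest in animals 574 and 549, at 0.20 and 1.23. Immediate early genes reached 0.5 in 7 of 16 cases. Female-biased and male-biased liver genes reached it in 14 of 19 and 10 of 14, P450 genes in 19 of 33 and clotting genes in 13 of 23. The sex-biased, P450 and clotting lists lie far above the reference. Median SDs in Cy5 and Cy3 were 0.47 and 0.44 for the female-biased list, and 0.43 and 0.35 for the male-biased list. They were 0.40 and 0.49 for the P450 list and 0.24 and 0.44 for the clotting list, against 0.26 and 0.22 over all genes measured. The source of the spread of these lists was not tested. Of the genes above 4 log2 units 35.3% reached an SD of 0.5. None of the 41 ribosomal protein, 39 oxidative phosphorylation and 26 proteasome genes reached it, with median SDs of 0.24, 0.15 and 0.14.

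Animal numbers fell into 3 runs, 547 to 552, 570 to 575 and 595 to 600, with 6, 5 and 5 animals. No label says what these runs stand for. All animals of run 1 lay at array position 1 and all of run 3 at position 2, so run and position cannot be told apart between those runs. Of 26773 probes 6, or 0.0224%, differed among the runs (limma moderated F test, Benjamini-Hochberg adjusted p below 0.05, slide as a random block), while 1712 had an unadjusted p below 0.05. Without the slide block 1 probe differed. The 4 named genes all had an adjusted p of 0.0495.

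Of these, Cyp2b10, the classic target of the receptor for phenobarbital-like drugs, had run means of 5.19, 3.63 and 2.88 as fitted with the slide block. Cyp2c55, another inducible P450, had 0.61, -0.87 and -1.06. Both were higher in run 1. Hspb1, a small heat shock protein, had -0.42, -1.19 and -0.22, with run 2 lowest. Ppp1r42, a regulatory subunit of a protein phosphatase, had 2.38, 2.01 and 1.41. Cyp2b10 ran from 2.09 to 5.79 over all animals, with raw Cy5 signals from 366 to 6630, and its SD was 1.25.

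Other genes followed the slide. Each of 8 slides held 2 control arrays, and for 78 of the 469 variable genes the SD within slides was under 0.5 times the whole SD, against 597 genes or 4.99% of all. Stc1, a secreted calcium regulator, was the clearest. Its SD was 1.33 over all animals and 0.32 within slides. It stood at 3.52 and 3.55 on slide 6 and at 2.95 and 3.23 on slide 8, and between 0.04 and 1.63 in the other animals. The 14 exposed animals had an SD of 1.33 as well. Liver signal of Stc1 was well above background on 9 of the 16 arrays.

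Both channels took part in such slide patterns. Cyp2d26, a P450, stood at 7.50 and 8.58 on slide 4 and between 4.87 and 6.47 elsewhere, with an SD of 0.99 in Cy3 and 0.21 in Cy5. Hpx and Pon1 likewise varied more in Cy3, at 0.81 and 0.87, than in Cy5, at 0.24 and 0.28. For Stc1, the olfactory receptor Olfr341 and the vomeronasal receptor Vmn2r30 the spread was in Cy5, at 1.19, 0.98 and 0.85. S100a4 had an SD of 0.76 over all animals and 0.13 within slides. The cause of these slide patterns was not tested.

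**Figure D5:**
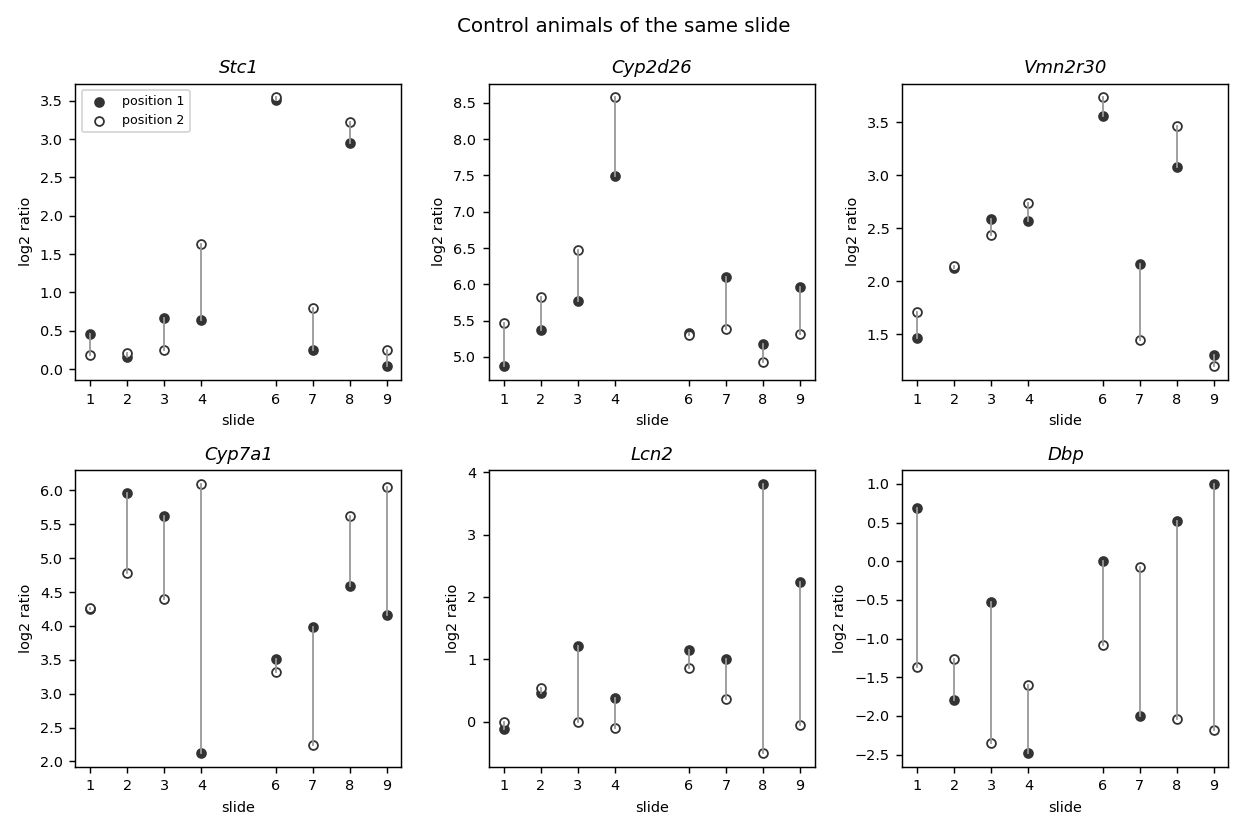
Log2 ratio of liver over reference (vertical axis, log2 units) of 6 genes on each of the 8 slides with control arrays (horizontal axis), with the animals at positions 1 and 2 of a slide joined. The SD within slides is 0.32 for Stc1, 0.45 for Cyp2d26 and 0.23 for Vmn2r30, each below the SD over all 16 arrays, although the Cyp2d26 pair of slide 4 lies at 7.50 and 8.58, while for Cyp7a1, Lcn2 and Dbp the SD within slides is above that over all arrays.

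The spread was measured again in animals that had not chosen the genes. In the 14 exposed mice the median SD was 0.18. Of the 469 variable genes 232, or 49.5%, had an SD of at least 0.5 there, against 3.09% of all genes measured, and 88 of the 100 most variable genes stood among the top 5% there. Across genes, which are not independent replicates and share slides and reference in both groups, the SDs correlated with a Spearman rho of 0.72. Sult3a1 was less variable there, at 0.60 against 1.35, and Saa3 more so, at 1.73 against 1.18. Neither difference was tested. A second probe was measured for part of the 469 genes, and its ratio followed the first across animals with a median r of 0.84 over 132 such probes, with 77 above 0.8 and 32 below 0.5.

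Hsd3b5, a steroid enzyme of male mouse liver, had an SD of 0.89. It stood highest in animals 596 and 600, at 3.21 and 2.46, and the other animals ran from 1.695 down to -0.02. How far these animals set its spread was not tested.

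The least variable genes were taken only from those well above background in both dyes on all 16 arrays. Those named lay near the reference. Fastk, a mitochondrial RNA regulator, had ratios from -0.34 to -0.13 and an SD of 0.05 (95% interval 0.04 to 0.08). Zmynd11, which reads a histone mark, ran from 0.23 to 0.45. Gak, a kinase of coated vesicles, ran from -0.01 to 0.20. Foxj3, a forkhead factor, was the exception in level, since it was lower in liver at -1.42 with an SD of 0.06 and ratios from -1.52 to -1.33. As the median over its probes Foxj3 lay at -0.84 and did not pass. It did not pass without normalisation within arrays, at -1.20. The SD of Cy5 for Fastk was 0.31 and that of Cy3 0.30.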

How the data were processed

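Scanner files hold foreground and background intensity per spot and dye in arbitrary units, as deposited by the authors after extraction with Agilent Feature Extraction 10.7.3.1 (14 control arrays) or 10.1.1.1 (2 arrays), per the file headers. RNA was isolated with TRIzol and RNeasy columns and 200 ng was amplified and labelled, per the labels' protocols. The value table the authors deposited holds log2 ratios of Cy5 over Cy3 normalised in a way not given in the sources used here. Over 14633 bright probes each of its 16 columns matched its own array best (r 0.983 to 0.992, slopes 0.833 to 0.928, column medians -0.041 to -0.019), so its direction and log base could be read and its normalisation could not.

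Median foreground intensities were corrected by normexp (offset 50), and ratios were then adjusted by loess on each array, a fit in which controls had weight 0. This was done in R 4.3.3 with limma 3.58.1. Spots marked as outliers were left out (882 probe values) and repeated spots were averaged. Tests covered probes with either dye well above background on 8 or more of the 16 arrays. The mean ratio was tested two-sided against a 2-fold limit by limma's treat, with slide as a random block (correlation 0.212) and Benjamini-Hochberg adjustment at 0.05 over 26773 probes. Nothing says that the arrays share RNA, and each carries its own animal number. Of 41174 probes 24375 received a symbol through their accession in a RefSeq table of build GRCm38.p6, and 7849 tested probes have none. Each gene stands for its tested probe with the highest mean signal of both dyes. Of 4525 genes with several tested probes 1, Abcb1b, was called in both directions.

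Genes were named by a fixed rule. It takes the markers, the 10 highest and 10 lowest ratios, the 10 largest bounds each way and the 15 most variable genes. The 10 least variable are taken among genes well above background in both dyes on all 16 arrays. From each of 48 lists the rule takes up to 6 called members by size, 3 not called and 3 by SD. Names outside it were added where a group turned on them, and some genes and a motif that it takes are not reported here. The animals, lists, motifs and rule were chosen with earlier results of these data known. The procedure was tested on simulated data. Alternatives changed background correction, normalisation, filter, slide block, fold limit, arrays and probe choice.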

Additional observations from a re-analysis of the deposited data

Results flagged for a closer look

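Lcn2, which encodes a siderophore-binding acute phase protein, had a ratio of 0.36 in animal 595, the highest of the 5 animals of the third run of animal numbers and far from the other 4, which lay below 0. It was the only value set apart from its run among 45 tests over the 15 most variable genes, and chance sets apart about 1 in 20 such groups. The value is high only within its run, since other animals of runs 1 and 2 lay above it, such as 550 at 1.21 and 570 at 0.85. The highest values of Lcn2 over all animals, 3.81 and 2.24, came from run 1.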

How the results depend on the processing

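Directions were stable and counts were not. Against 3125 probes higher and 3017 lower, the scanner's processed signals gave 6547 lower (3572 named genes in place of 2029), and values without normalisation within arrays gave 1788 lower (1233 genes). Without a fold limit 10913 probes were higher and 12631 lower (5426 and 6592 genes), and with a 4-fold limit 1514 and 797 (1061 and 592 genes). Of 278 named genes with a call 215 kept it under every alternative in which they were measured (182 of the 278 with both dyes above background on all arrays), 29 lost it under one other than the 4-fold limit and 0 reversed. The median of all genes was -0.10, and 0.16 without normalisation, -0.30 with processed signals and -0.20 in the deposited table. For genes with an SD of at least 0.5, against 469, the count was 711 for Cy5 alone, 221 with slide effects removed, 239 with both dyes above background on all arrays, 2008 with processed signals and 925 with an offset of 10, which was chosen after seeing the data. Of the 100 most variable genes 56, 59, 59, 27 and 77 stood among the top 100 there. The median SD rose from 0.18 to 0.32 under median centring. With slide effects removed the SD was 0.97 for Sult3a1 and 0.32 for Stc1. The number of probes that differed among runs fell from 6 to 1 without the slide block. The median of the proteasome list was -0.11, and 0.33 under median centring, 0.57 without normalisation and 0.25 with an offset of 10, and that of the 3 pancreas genes was -0.10 and 0.20 without normalisation. The cause of these shifts was not tested. No paired analysis was possible because the result sets each liver against a common reference and the animals share no replicate numbers between groups. A reference signal near background limits the ratio of a liver gene, and an unswapped dye limits small ratios.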
